A study of Mus musculus with 63 samples.

Results

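Ly6c2, Ccr2, Plac8, Chil3, Vcan, F13a1, Fn1, Cd209a and Itgax are genes used to mark monocytes and the macrophages that arise from them. They were chosen by name, and their symbols were matched to the Ensembl identifiers of the deposited gene count table. All 9 of these 9 genes were found among the 56748 genes of the table. All 9 passed the filter on low counts, which left 22147 genes in the tests.

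Classical monocytes leave the bone marrow through the chemokine receptor Ccr2, carry the surface protein Ly6c2 and enter inflamed tissue. In the peritoneal cavity an irritant such as thioglycollate broth draws them in, and they mature there into macrophages beside the resident large peritoneal macrophages, which depend on the transcription factor Gata6. During this maturation Ly6c2 and Ccr2 are known to be turned down, while matrix proteins, lectins and integrins come up.

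The libraries are bulk polyA RNA-seq of mouse macrophages that adhered to plastic after peritoneal lavage. Every mouse had received 3% thioglycollate broth 72 h earlier, so all groups share that elicitation. The mice carried the R1441C substitution, linked to Parkinson's disease, knocked into their own Lrrk2 gene, or were B6 controls with the wild-type gene. They were female or male and labelled young (2 to 3 months) or old (18 to 21 months). In culture, 100 U of interferon gamma (IFN-γ) or water as vehicle was added for 18 h, and the vehicle libraries are labelled untreated. These 4 factors make 16 groups of 2 to 5 libraries and 63 libraries in all. Wild-type females had 3 young untreated, 5 old untreated, 3 young IFN-γ and 5 old IFN-γ libraries, and wild-type males had 3, 3, 5 and 5 in that order. Knock-in females had 5, 5, 2 and 5, and knock-in males had 3, 3, 3 and 5. The labels give no animal, so the p-values measure the spread between these libraries, part of which may be technical.

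Several labels went against the data, and this bears on every direction given here. Gbp2, a gene strongly induced by IFN-γ, ranged over 4372 to 7510 CPM (counts scaled to the library's total and by TMM factors) where the label was old and over 13.5 to 883 CPM where it was young, whatever the treatment label. All 12 of 12 genes listed as IFN-γ-induced were higher with the old label in both genotypes, with median log2 differences of 4.50 and 4.82. The B cell gene Cd79a, by contrast, covered 4.92 to 311 CPM with the treatment label IFN-γ and 1.42 to 12.3 CPM with the label untreated. Below, "old", "young", "IFN-γ" and "untreated" therefore name labels only, and which factor each comparison measures cannot be told apart from these files. The knock-in old untreated males carry IFN-γ in another label field.

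Some libraries stood apart. Old IFN-γ wild-type female 2 and young IFN-γ wild-type female 1 lay at the end of the second principal component, which held 18.9% of the variance. They also held the summed resident peritoneal macrophage markers at 3913 and 7335 CPM, against 988 CPM in the lowest library. Old IFN-γ knock-in females 4 and 5 had Xist, the RNA of the inactive X chromosome, at 1.69 and 1.55 CPM, against their sex label, although the Y-linked Ddx3y was low as well at 0.624 and 0.601 CPM. A further 7 libraries, 1 of them among those named above, held a trace of RNA from the other sex. Together these are 10 doubted libraries, and counts of called members that change without them are given both ways. Total counts per library ran from 73.6 M to 106.6 M with a median of 98.2 M. Lrrk2 itself ranged from 23.4 to 269 CPM with a log2 difference by genotype of -0.26 that was not called, and its level gives no check of genotype.

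Per unit of length, on the scale of the deposited FPKM values, the members spanned a wide range. Median levels over the 63 libraries were 85.2 FPKM for Itgax, 65.8 for Chil3, 46.9 for Fn1, 28.6 for Plac8 and 18.7 for Ly6c2. Ccr2 followed at 6.09 FPKM and F13a1 at 2.08, while Vcan at 0.356 and Cd209a at 0.170 were close to the bottom. The groups accounted for 94.3% of the variance of log2 CPM for F13a1, 90.7% for Plac8, 88.7% for Ly6c2 and 82.2% for Cd209a. For Chil3 and Vcan the share was 52.8% and 33.6%, so most of what Vcan did took place within groups. These shares are not adjusted for fitting 16 groups to 63 libraries, which yields part of such a share even without group differences. All levels below are CPM, a scale on which a gene is compared only with itself.

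**Figure D1:**
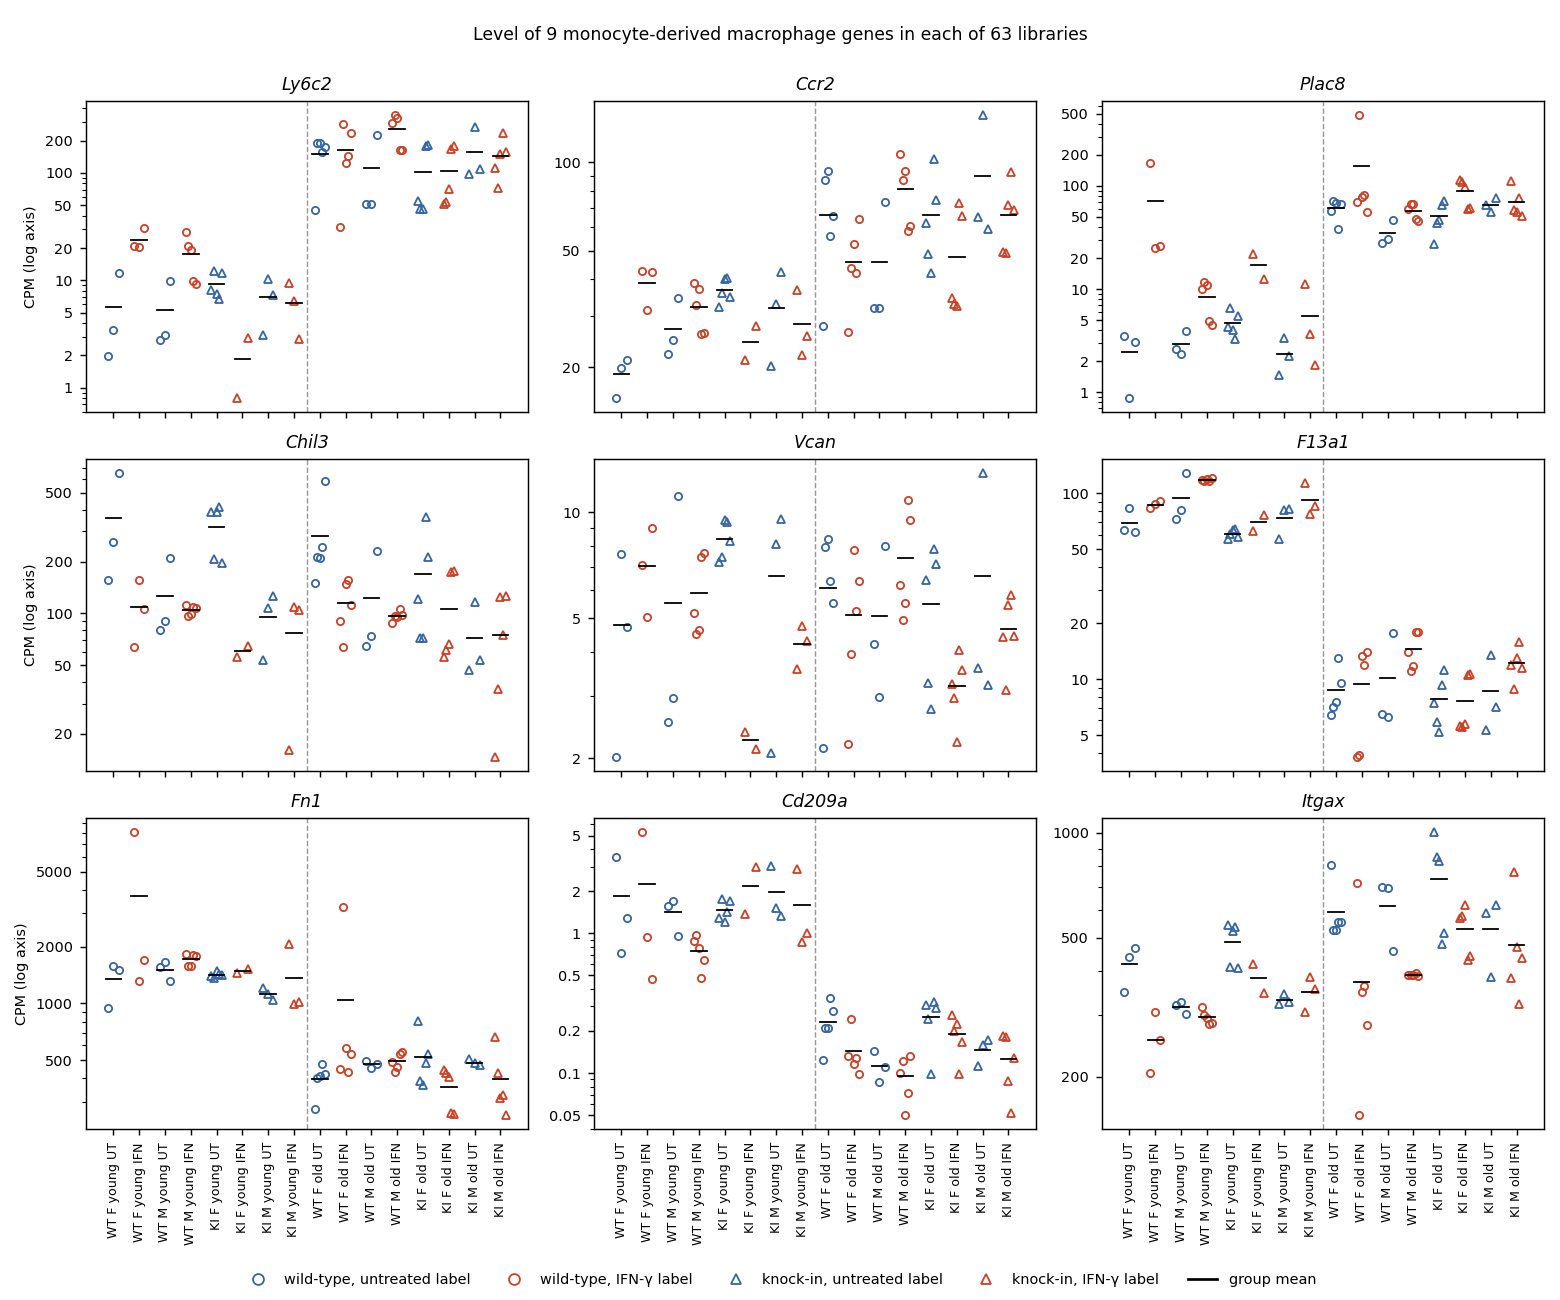
Level of each of the 9 genes in CPM on a log axis, 1 panel a gene, with 1 point for each of the 63 libraries in their 16 groups and the old and young labels on either side of the dashed line. Ly6c2, F13a1 and Cd209a showed no overlap between the 2 age labels, whereas the Chil3 and Vcan points covered the same range on both sides.

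The age label split the members by direction. In wild-type libraries 4 of 9 members were higher with the old label (Ly6c2, Ccr2, Plac8 and Itgax) and 3 were lower (F13a1, Fn1 and Cd209a), by edgeR's quasi-likelihood test averaged over the 4 strata of sex and treatment label. In knock-in libraries the same 4 were higher and the same 3 lower. The background was large, since 61.1% of all genes tested were called in wild type (28.1% higher and 33% lower) and 60.1% in knock-in (27.9% higher and 32.2% lower). The median log2 difference of the 9 members was 0.02 in wild type and 0.01 in knock-in, against -0.08 and -0.05 over all genes. In single strata the share of all genes called was 43.4% in untreated and 34.2% in IFN-γ wild-type females, with 35.6% and 37.8% in the males of that genotype. The knock-in strata followed at 42.8% and 46.5% (females) and 31.2% and 34.9% (males). All 7 calls in each genotype held in every alternative that was run. In bulk libraries, fewer cells of a type and less RNA per cell cannot be told apart.

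The difference by age label was not called different between the genotypes for any member. The genotype by age label term called 0 of 9 members (adjusted p 1.00 for each by edgeR), beside 0% of all genes. It called 0 at an unadjusted p under 0.05, and DESeq2 called 0 members, beside 2 genes in all. The 2 estimates came from separate libraries, and their values are given side by side for each member.

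**Figure D2:**
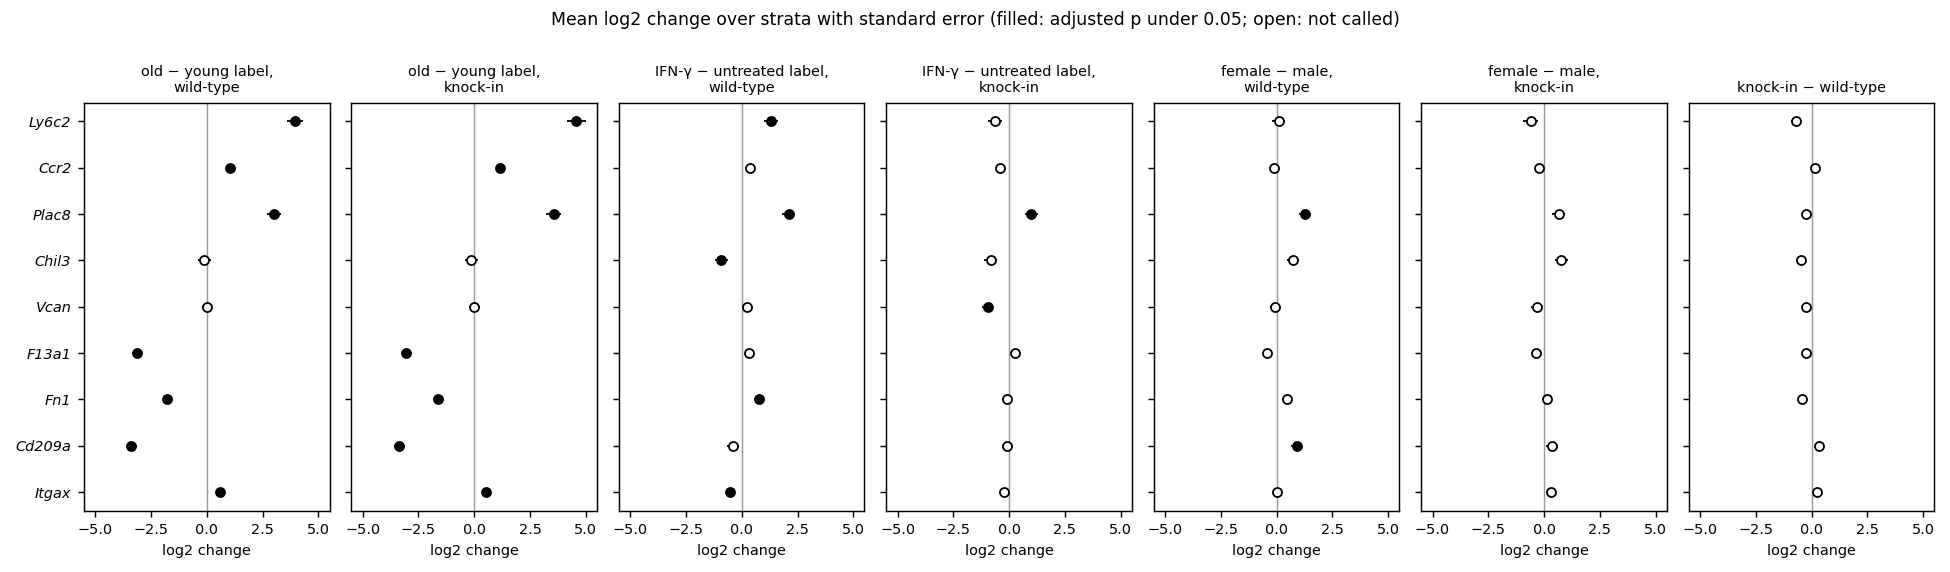
Mean log2 difference of each member with its standard error in each mean contrast, with filled points for an adjusted p under 0.05 and open points otherwise. In both genotypes Ly6c2, Plac8, Ccr2 and Itgax lay right of 0 for the old label and F13a1, Cd209a and Fn1 left of it, while no genotype difference was past the threshold.

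Ly6c2 (ENSMUSG00000022584) encodes the surface protein that defines classical, Ly6C-high monocytes, and it lies beside the near copy Ly6c1. The stretches before the starts of both genes are shown because the pair rose and fell together across the libraries, at mean levels of 90.5 and 3.02 CPM. They are read from RefSeq on GRCm38.p6, both on the minus strand, at chr15:75111998-75112221 for Ly6c2 (250 to 27 bases before a start) and chr15:75048839-75049056 for Ly6c1 (219 to 2 bases before a start). The capitals mark a match to the PU.1 element GAGGAAGT, named for the myeloid transcription factor that binds it.
Ly6c2: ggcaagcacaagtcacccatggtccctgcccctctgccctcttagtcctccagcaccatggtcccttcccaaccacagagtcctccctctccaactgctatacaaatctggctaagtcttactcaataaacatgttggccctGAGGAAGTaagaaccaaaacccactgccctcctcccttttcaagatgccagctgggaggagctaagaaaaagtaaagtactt
Ly6c1: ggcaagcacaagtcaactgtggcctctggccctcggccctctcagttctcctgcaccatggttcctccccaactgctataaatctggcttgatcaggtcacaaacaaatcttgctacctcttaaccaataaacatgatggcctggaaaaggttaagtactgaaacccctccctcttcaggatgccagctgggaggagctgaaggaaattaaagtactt

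Over 227 aligned positions these stretches had 164 bases in common (72.2%). The PU.1 match of Ly6c2 began 108 bases before that start, and 2.44% of 32851 promoters of the same length hold these letters on either strand in their 250 bases upstream. Both genes have another annotated start. Counted from that of Ly6c2, the same match began 142 bases upstream, and a further match lay at 8 bases. Ly6c1 held a match 127 bases upstream of its other start, outside its printed stretch. The transcripts of the pair were 97.6% identical over their aligned part, and 5.81% of the 100-base windows of Ly6c2 also occur in Ly6c1, so part of either gene's count may belong to the other.

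In wild-type males, Ly6c2 stood at 2.80, 3.10 and 9.83 CPM in young and 51.5, 51.6 and 228 in old untreated libraries, and at 27.9, 21.1, 19.3, 9.92 and 9.23 in young and 293, 349, 325, 164 and 164 in old IFN-γ libraries. Ly6c2 in wild-type females was at 1.96, 3.48 and 11.7 CPM (young) and 44.9, 188, 189.7, 155 and 174 (old) in untreated libraries, and at 21.1, 20.5 and 30.5 (young) and 31.6, 285, 125, 145 and 234 (old) in IFN-γ libraries. In each of these 4 sex and treatment sets every old library lay above every young one, although old libraries of 1 group differed by several fold among themselves. In knock-in males, Ly6c2 stood at 3.13, 10.3 and 7.37 CPM in young and 97.0, 266 and 108 in old untreated libraries, and at 9.37, 6.39 and 2.83 in young and 111, 72.0, 152, 234 and 155 in old IFN-γ libraries. Ly6c2 in knock-in females was at 8.17, 12.2, 7.48, 6.64 and 11.8 CPM (young) and 54.6, 45.9, 45.9, 178 and 181 (old) in untreated libraries, and at 0.805 and 2.90 (young) and 51.6, 53.4, 70.8, 168 and 177 (old) in IFN-γ libraries. The 2 young IFN-γ knock-in females were among the lowest of all, and the lower of them, at 0.805 CPM, rests on 87 counts. Over all 63 libraries the old range of 31.6 to 349 CPM (median 155) did not meet the young range of 0.805 to 30.5 CPM (median 9.23). Such a separation in either direction was seen for 3 of 9 members and for 6.62% of all genes tested. Within single strata, 24.3% to 61.5% of all genes had old and young libraries that did not overlap.

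The log2 difference of Ly6c2 by age label was 3.94 ± 0.35 (SE) in wild type (adjusted p = 2.53e-14, edgeR) and 4.58 ± 0.41 in knock-in (adjusted p = 3.86e-14, edgeR). It was called in all 8 strata, from 2.77 in IFN-γ wild-type females to 5.81 in IFN-γ knock-in females. Ly6c1 gave 3.97 and 4.64 in the 2 genotypes, and another family member, Ly6a (Sca-1), gave 4.24 and 4.90.

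Ccr2 (ENSMUSG00000049103) encodes the receptor for the monocyte chemokines Ccl2, Ccl7 and Ccl12. In wild-type males, Ccr2 stood at 22.2, 24.7 and 34.3 CPM in young and 32.0, 31.9 and 73.5 in old untreated libraries, and at 38.7, 32.6, 36.9, 26.0 and 26.2 in young and 107, 87.1, 93.7, 58.3 and 60.9 in old IFN-γ libraries. Ccr2 in wild-type females was at 15.7, 19.9 and 21.2 CPM (young) and 27.6, 86.8, 93.6, 55.9 and 65.8 (old) in untreated libraries, and at 42.4, 31.3 and 42.2 (young) and 26.4, 43.5, 52.5, 42.0 and 64.1 (old) in IFN-γ libraries. The wild-type groups overlapped in untreated males and in IFN-γ females. In knock-in males, Ccr2 stood at 20.2, 32.9 and 42.3 CPM in young and 64.9, 145 and 59.1 in old untreated libraries, and at 36.8, 22.0 and 25.6 in young and 49.4, 48.9, 71.7, 92.4 and 68.7 in old IFN-γ libraries. Ccr2 in knock-in females was at 32.1, 35.7, 39.9, 40.3 and 34.8 CPM (young) and 62.0, 48.9, 41.8, 103 and 74.4 (old) in untreated libraries, and at 21.2 and 27.7 (young) and 34.5, 32.8, 32.4, 72.5 and 65.7 (old) in IFN-γ libraries. In knock-in libraries every old group lay above its young counterpart. The mean log2 difference was 1.04 ± 0.17 in wild type (adjusted p = 3.71e-07, edgeR) and 1.14 ± 0.18 in knock-in (adjusted p = 1.63e-07, edgeR). Of 8 strata, 6 were called, with values from 0.24 (IFN-γ wild-type females) to 1.80 (untreated wild-type females). In untreated knock-in females the call was lost without old female 4 (adjusted p = 0.0739, edgeR), and in IFN-γ knock-in females without any of old females 4 and 5 and young females 1 and 2 (adjusted p up to 0.257, edgeR). Ranges over all libraries overlapped, at 26.4 to 145 CPM in old and 15.7 to 42.4 CPM in young.

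Plac8 (ENSMUSG00000029322) encodes a small cysteine-rich protein abundant in monocytes, and B cells also express it. In wild-type males, Plac8 stood at 2.64, 2.35 and 3.89 CPM in young and 28.2, 30.2 and 47.1 in old untreated libraries, and at 9.99, 11.6, 11.0, 4.89 and 4.46 in young and 59.6, 67.4, 67.0, 47.4 and 45.5 in old IFN-γ libraries. Plac8 in wild-type females was at 3.53, 0.879 and 3.03 CPM (young) and 57.1, 71.9, 67.9, 38.4 and 67.0 (old) in untreated libraries, and at 165, 25.2 and 26.1 (young) and 69.2, 491, 77.3, 82.5 and 56.1 (old) in IFN-γ libraries. Young IFN-γ wild-type female 1 at 165 CPM and old IFN-γ wild-type female 2 at 491 CPM were the libraries that stood apart. In knock-in males, Plac8 stood at 1.47, 3.35 and 2.26 CPM in young and 65.2, 55.8 and 76.0 in old untreated libraries, and at 11.1, 3.65 and 1.82 in young and 111, 58.0, 55.7, 75.9 and 50.8 in old IFN-γ libraries. Plac8 in knock-in females was at 4.27, 6.59, 3.99, 3.28 and 5.51 CPM (young) and 27.2, 44.0, 46.3, 64.8 and 71.0 (old) in untreated libraries, and at 21.9 and 12.6 (young) and 114, 109.7, 97.4, 59.5 and 61.5 (old) in IFN-γ libraries. Outside the IFN-γ wild-type females, the old and young libraries of each set did not overlap. The mean log2 difference by age label was 3.01 ± 0.30 in wild type (adjusted p = 4.98e-13, edgeR) and 3.56 ± 0.33 in knock-in (adjusted p = 1.19e-13, edgeR). It was called in 7 of 8 strata, and the exception was IFN-γ wild-type females (1.11 ± 0.54, adjusted p = 0.108, edgeR), which were called without young female 1 (2.61, adjusted p = 0.000801, edgeR). In IFN-γ knock-in females the call was lost without young female 2 (adjusted p = 0.0752, edgeR).

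Itgax (ENSMUSG00000030789) encodes CD11c, an integrin chain that pairs with Itgb2 and is carried by dendritic cells and many tissue macrophages. In wild-type males, Itgax stood at 321, 327 and 303 CPM in young and 699, 691 and 458 in old untreated libraries, and at 317, 299.6, 293, 283 and 285 in young and 390.5, 390.2, 391, 396 and 388 in old IFN-γ libraries. Itgax in wild-type females was at 349, 441 and 468 CPM (young) and 808, 526, 525, 554 and 553 (old) in untreated libraries, and at 205, 306 and 254 (young) and 715, 155, 349, 362 and 281 (old) in IFN-γ libraries. Old untreated wild-type female 1, with the lowest Ly6c2 of its group, had the highest Itgax. In knock-in males, Itgax stood at 322, 344 and 326 CPM in young and 587, 386 and 619 in old untreated libraries, and at 306, 387 and 357 in young and 383, 769.7, 471, 323 and 436 in old IFN-γ libraries. Itgax in knock-in females was at 543, 411, 521, 536 and 409.9 CPM (young) and 1004, 853, 831, 478 and 514 (old) in untreated libraries, and at 420.2 and 348 (young) and 569.8, 576, 621, 432 and 444 (old) in IFN-γ libraries. The difference by age label was modest, at 0.60 ± 0.13 in wild type (adjusted p = 4.68e-05, edgeR) and 0.55 ± 0.13 in knock-in (adjusted p = 0.000322, edgeR). It was positive in all 8 strata, at 0.40 to 0.96, but called in 2, the untreated wild-type males and untreated knock-in females. The latter call was lost without old female 1 or 3 (adjusted p up to 0.0724, edgeR). A share of 3.05% of its 100-base windows also occurs in Itgad.

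F13a1 (ENSMUSG00000039109) encodes the A chain of coagulation factor XIII, a transglutaminase that cross-links fibrin and matrix proteins. In wild-type males, F13a1 stood at 72.8, 81.0 and 128 CPM in young and 6.46, 6.27 and 17.7 in old untreated libraries, and at 118, 117, 119, 117 and 122 in young and 13.9, 11.0, 11.8, 18.0 and 18.0 in old IFN-γ libraries. F13a1 in wild-type females was at 63.7, 83.4 and 61.7 CPM (young) and 6.38, 7.08, 7.51, 13.1 and 9.56 (old) in untreated libraries, and at 83.3, 87.2 and 90.7 (young) and 3.83, 3.92, 13.4, 11.9 and 14.0 (old) in IFN-γ libraries. No library crossed the gap between old and young. In knock-in males, F13a1 stood at 56.6, 80.9 and 82.6 CPM in young and 5.35, 13.5 and 7.11 in old untreated libraries, and at 114, 77.4 and 85.7 in young and 11.9, 8.83, 13.1, 15.8 and 11.5 in old IFN-γ libraries. F13a1 in knock-in females was at 56.9, 60.4, 63.4, 64.0 and 58.4 CPM (young) and 7.43, 5.86, 5.20, 9.30 and 11.2 (old) in untreated libraries, and at 62.96 and 76.8 (young) and 5.60, 5.54, 5.75, 10.6 and 10.6 (old) in IFN-γ libraries. The highest old library was at 18.0 CPM and the lowest young library at 56.6 CPM. F13a1 differed by -3.11 ± 0.17 in wild type (adjusted p = 2.03e-22, edgeR) and by -3.04 ± 0.17 in knock-in (adjusted p = 9.05e-22, edgeR). The 8 strata were close to each other, from -3.21 to -2.92, and all were called.

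Fn1 (ENSMUSG00000026193) encodes fibronectin, a matrix protein that macrophages and fibroblasts secrete. In wild-type males, Fn1 stood at 1556, 1654 and 1313 CPM in young and 495, 455 and 475 in old untreated libraries, and at 1826, 1586, 1587, 1814 and 1777 in young and 488, 434, 459.5, 538 and 549 in old IFN-γ libraries. Fn1 in wild-type females was at 948, 1581 and 1501 CPM (young) and 276, 401, 412, 479 and 423 (old) in untreated libraries, and at 8108, 1309 and 1696 (young) and 450.2, 3235, 581, 434 and 539 (old) in IFN-γ libraries. The libraries at 8108 and 3235 CPM were again young IFN-γ wild-type female 1 and old IFN-γ wild-type female 2. In knock-in males, Fn1 stood at 1199.6, 1123 and 1044 CPM in young and 507, 480.4 and 469 in old untreated libraries, and at 2061, 996 and 1019.5 in young and 662, 426, 313, 325 and 255 in old IFN-γ libraries. Fn1 in knock-in females was at 1389, 1369.7, 1476, 1426 and 1414 CPM (young) and 807, 388, 370.4, 485 and 540.5 (old) in untreated libraries, and at 1455 and 1529 (young) and 444, 428, 408, 262 and 259 (old) in IFN-γ libraries. Apart from the IFN-γ wild-type females, old libraries lay below young ones in each set. The mean log2 difference was -1.76 ± 0.21 in wild type (adjusted p = 1.85e-10, edgeR) and -1.62 ± 0.21 in knock-in (adjusted p = 3.13e-09, edgeR), and all 8 strata were called, from -2.05 to -1.21. In IFN-γ wild-type females the call was lost without young female 1 (-0.51, adjusted p = 0.379, edgeR), and in untreated knock-in males without any 1 of the 6 libraries (adjusted p from 0.0618 to 0.107, edgeR). Beside 33% and 32.2% of all genes, 8 of 13 mesothelial and fibroblast markers were lower in wild type and 9 of 13 in knock-in. Their summed level was 19.2 to 404 CPM in old and 46.8 to 617 CPM in young libraries. Its part in the Fn1 difference was not tested.

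Cd209a (ENSMUSG00000031494) encodes a C-type lectin of monocyte-derived dendritic cells and some macrophages. It was the member with the fewest counts, and its lowest library, at 0.0499 CPM, rests on 5 counts. In wild-type males, Cd209a stood at 1.56, 1.71 and 0.951 CPM in young and 0.144, 0.0858 and 0.110 in old untreated libraries, and at 0.887, 0.964, 0.784, 0.478 and 0.646 in young and 0.101, 0.121, 0.0499, 0.0717 and 0.132 in old IFN-γ libraries. Cd209a in wild-type females was at 3.51, 0.725 and 1.29 CPM (young) and 0.123, 0.211, 0.209, 0.342 and 0.278 (old) in untreated libraries, and at 5.30, 0.945 and 0.473 (young) and 0.133, 0.243, 0.117, 0.129 and 0.0983 (old) in IFN-γ libraries. Even at these levels no old library reached a young one. In knock-in males, Cd209a stood at 3.04, 1.51 and 1.32 CPM in young and 0.112, 0.159 and 0.171 in old untreated libraries, and at 2.90, 0.867 and 0.996 in young and 0.185, 0.181, 0.0884, 0.0520 and 0.129 in old IFN-γ libraries. Cd209a in knock-in females was at 1.28, 1.76, 1.20, 1.42 and 1.70 CPM (young) and 0.308, 0.244, 0.0986, 0.324 and 0.293 (old) in untreated libraries, and at 1.38 and 2.99 (young) and 0.258, 0.201, 0.224, 0.0986 and 0.166 (old) in IFN-γ libraries. The old libraries ended at 0.342 CPM and the young ones began at 0.473 CPM. Cd209a differed by -3.38 ± 0.26 in wild type (adjusted p = 1.44e-16, edgeR) and by -3.35 ± 0.26 in knock-in (adjusted p = 1.89e-16, edgeR), with all 8 strata called, from -3.94 to -2.53. Of its paralogs, Cd209b differed by -2.29 and -1.83, Cd209f by -3.44 and -2.90, and Cd209g by -4.57 and -4.19, all called in both genotypes. Cd209c was at -1.87 in wild type, where it was called, and at -0.49 in knock-in, where it was not. These 4 had mean levels of 0.257 (Cd209b), 0.0391 (Cd209f), 0.0414 (Cd209g) and 0.0234 CPM (Cd209c), against 0.771 CPM for Cd209a. Their differences therefore rest on few counts.

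Chil3 (ENSMUSG00000040809) encodes Ym1, a secreted chitinase-like protein of monocytes and alternatively activated macrophages. Its neighbour Chil4 is a near copy, and the stretches before both starts are shown because Chil4 was the gene whose log levels followed those of Chil3 most closely, at a mean of 1.57 CPM. They lie on the minus strand of GRCm38.p6 in RefSeq at chr3:106167565-106167785 (Chil3, 221 to 1 bases before a start) and chr3:106219508-106219728 (Chil4, 249 to 29 bases before a start). The capitals mark a match to TTCNNNGAA, the GAS element that Stat transcription factors bind.
Chil3: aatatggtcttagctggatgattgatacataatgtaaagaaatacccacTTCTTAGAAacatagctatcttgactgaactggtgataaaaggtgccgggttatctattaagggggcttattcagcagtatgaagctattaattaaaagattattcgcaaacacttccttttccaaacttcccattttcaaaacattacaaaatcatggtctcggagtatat
Chil4: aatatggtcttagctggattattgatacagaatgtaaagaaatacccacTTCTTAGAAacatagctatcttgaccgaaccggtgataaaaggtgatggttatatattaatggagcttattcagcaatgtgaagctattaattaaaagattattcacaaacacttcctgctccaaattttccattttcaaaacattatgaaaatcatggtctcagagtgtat

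These 2 stretches had 201 of 222 aligned positions in common (90.5%). The GAS match began 172 bases before the start of Chil3 and 200 bases before that of Chil4, and 7.02% of promoters hold such letters on either strand. The remaining motif searched, the interferon-stimulated response element, occurs in 2.98% of promoters. Over the same 250 bases Ccr2, Plac8, Vcan, F13a1, Cd209a and Itgax held none of the 3 motifs. The transcripts of the Chil3 pair were 94.3% identical, and 4.93% of the 100-base windows of Chil3 also occur in Chil4 or Gm6522, so its counts too are uncertain to that extent.

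In wild-type males, Chil3 stood at 80.3, 90.4 and 210.3 CPM in young and 64.6, 74.0 and 230.1 in old untreated libraries, and at 112, 97.2, 99.7, 108 and 108 in young and 88.0, 96.5, 94.8, 105 and 98.4 in old IFN-γ libraries. Chil3 in wild-type females was at 156, 261 and 649 CPM (young) and 150.0, 212, 210.5, 242 and 589 (old) in untreated libraries, and at 63.7, 156 and 106 (young) and 90.2, 64.1, 149, 156 and 113 (old) in IFN-γ libraries. Libraries of 1 group differed as much as the groups did. In knock-in males, Chil3 stood at 53.9, 107 and 127 CPM in young and 47.2, 116 and 53.9 in old untreated libraries, and at 16.3, 109 and 105 in young and 14.8, 36.7, 124, 74.6 and 126 in old IFN-γ libraries. Chil3 in knock-in females was at 389, 206, 386, 413 and 196 CPM (young) and 121, 72.3, 72.0, 364 and 214 (old) in untreated libraries, and at 56.0 and 64.7 (young) and 56.1, 61.0, 66.3, 173 and 175 (old) in IFN-γ libraries. Old libraries ran from 14.8 to 589 CPM and young ones from 16.3 to 649 CPM. The log2 difference by age label was -0.11 ± 0.28 in wild type (adjusted p = 0.76, edgeR) and -0.13 ± 0.29 in knock-in (adjusted p = 0.718, edgeR), and no stratum was called. Chil4 gave -0.01 and -0.26, and Chil1, a further paralog of Chil3 at a mean of 0.322 CPM, gave 0.37 and -0.24, none called.

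Vcan (ENSMUSG00000021614) encodes versican, a large proteoglycan made by classical monocytes. In wild-type males, Vcan stood at 2.53, 2.97 and 11.1 CPM in young and 4.21, 2.98 and 8.05 in old untreated libraries, and at 5.19, 4.51, 4.64, 7.47 and 7.66 in young and 6.22, 4.93, 5.53, 10.8 and 9.55 in old IFN-γ libraries. Vcan in wild-type females was at 2.02, 7.62 and 4.73 CPM (young) and 2.14, 7.97, 8.38, 6.36 and 5.54 (old) in untreated libraries, and at 7.07, 5.05 and 9.02 (young) and 2.20, 3.95, 7.80, 5.25 and 6.38 (old) in IFN-γ libraries. Old and young libraries covered the same range. In knock-in males, Vcan stood at 2.07, 8.15 and 9.59 CPM in young and 3.61, 12.9 and 3.24 in old untreated libraries, and at 3.58, 4.75 and 4.31 in young and 4.41, 3.13, 5.47, 5.82 and 4.46 in old IFN-γ libraries. Vcan in knock-in females was at 7.24, 7.46, 9.51, 9.37 and 8.31 CPM (young) and 6.43, 3.28, 2.75, 7.88 and 7.11 (old) in untreated libraries, and at 2.38 and 2.12 (young) and 3.26, 2.97, 2.23, 4.06 and 3.56 (old) in IFN-γ libraries. Old libraries stood at 2.14 to 12.9 CPM and young ones at 2.02 to 11.1 CPM. The log2 difference by age label was 0.02 ± 0.23 in wild type (adjusted p = 0.955, edgeR) and 0.01 ± 0.24 in knock-in (adjusted p = 0.983, edgeR), with no stratum called.

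Within some groups, libraries with low Ly6c2 had high Itgax and lower Ccr2. The examples were chosen after their values were seen. In old untreated knock-in females the 3 libraries with Ly6c2 at 54.6, 45.9 and 45.9 CPM had Itgax at 1004, 853 and 831 CPM, and the 2 with Ly6c2 at 178 and 181 CPM had Itgax at 478 and 514 CPM. Ccr2 stood at 62.0, 48.9 and 41.8 CPM in the former and at 103 and 74.4 CPM in the latter. In old untreated wild-type males the 2 libraries with Ly6c2 at 51.5 and 51.6 CPM had Itgax at 699 and 691 CPM, and the one with 228 CPM had Itgax at 458 CPM. In old IFN-γ wild-type males Itgax stayed at 388 to 396 CPM while Ly6c2 ran from 164 to 349 CPM. Ccr2 did differ there, at 58.3 and 60.9 CPM where Ly6c2 was 164 CPM and 87.1 to 107 CPM in the others. Libraries were compared by their counts over 13926 genes with a mean count of at least 50, and no pair agreed within sampling noise. Of the 63 libraries, 31 fell into 14 sets of near neighbours within their groups. Among them were 2 of the 3 low-Ly6c2 knock-in females and both low-Ly6c2 untreated wild-type males named here. Counting each such set as 1 library left 46.

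**Figure D3:**
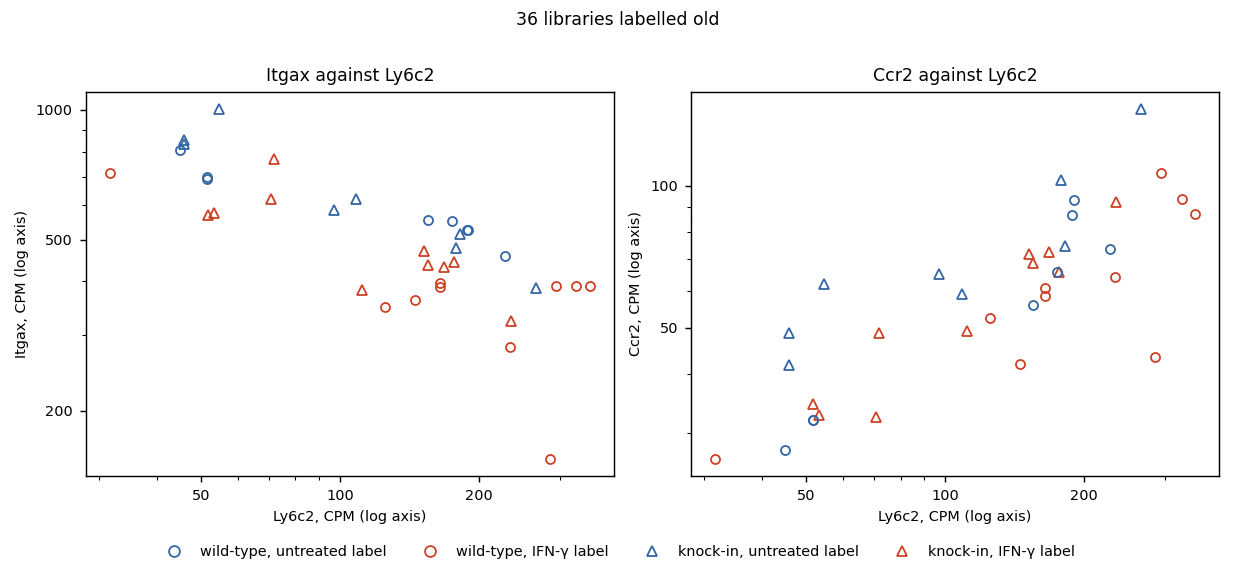
Itgax (left) and Ccr2 (right) against Ly6c2 in the 36 libraries labelled old, in CPM on log axes, with 1 point a library, symbols for genotype and colours for the treatment label. The libraries with the lowest Ly6c2 lay at the upper end of Itgax and towards the lower end of Ccr2.

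The treatment label called fewer members, and the 2 genotypes differed. With the IFN-γ label, Ly6c2, Plac8 and Fn1 were higher and Chil3 and Itgax lower in wild type (3 and 2 of 9), beside 15.6% of all genes in each direction and 31.3% in all. In knock-in libraries Plac8 was higher and Vcan lower (1 and 1 of 9), beside 3.68% and 4.31% and 7.98% in all. The median log2 difference of the 9 members was 0.32 in wild type and -0.22 in knock-in. Single strata held fewer calls over all genes, at 14.7% (young) and 19.2% (old) in wild-type females and 17.7% and 5.81% in knock-in females. In males the share was 0.275% and 2.52% in wild type and 0.0316% and 0.104% in knock-in, and no member was called in these 4 strata.

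Ly6c2 showed the widest gap between genotypes. It was higher by 1.29 ± 0.31 in wild type (adjusted p = 0.00108, edgeR) and stood at -0.64 ± 0.32 in knock-in (adjusted p = 0.243, edgeR). The term for genotype by treatment label was -1.93 ± 0.45 (adjusted p = 0.00439, edgeR). By stratum, Ly6c2 was higher in young wild-type females (2.07 ± 0.70, adjusted p = 0.0369, edgeR) and lower in young knock-in females (-2.32 ± 0.82, adjusted p = 0.0414, edgeR), where 14.7% and 17.7% of all genes were called. In both strata the IFN-γ and untreated libraries did not overlap, as for 22.4% and 45.6% of all genes. The wild-type call was lost without any of young IFN-γ females 1 and 5 and young untreated females 1 and 4 (adjusted p up to 0.187, edgeR). The knock-in stratum rests on 2 IFN-γ libraries, and its call was lost without either of them or any of young untreated females 1, 2 and 5 (adjusted p up to 0.386, edgeR). In the old strata Ly6c2 differed by 0.13 and 0.04 in females and by 1.23 and -0.12 in males (wild type, then knock-in), none of them called. The near copy Ly6c1 differed by 1.25 in wild type (adjusted p = 1.10e-05, edgeR) and by -0.04 in knock-in (adjusted p = 0.963, edgeR).

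The genotype by treatment label term called 4 of 9 members, all lower, beside 6.01% of all genes lower and 12% in all. Besides Ly6c2 these were Vcan at -1.19 ± 0.33 (adjusted p = 0.0144, edgeR), Ccr2 at -0.81 ± 0.24 (adjusted p = 0.0197, edgeR) and Fn1 at -0.89 ± 0.30 (adjusted p = 0.0432, edgeR). Plac8 stood at -1.11 ± 0.39 (adjusted p = 0.05, edgeR) and was just not called. The median over the 9 members was -0.81, against -0.01 over all genes. Ccr2 was not called without old untreated knock-in male 4 (adjusted p = 0.0533, edgeR), nor Fn1 without any 1 of 22 libraries (adjusted p up to 0.155, edgeR). Without the 2 libraries that stood apart Fn1 fell out (-0.30, adjusted p = 0.236, edgeR). Without all 10 doubted libraries Ly6c2 (-1.95, adjusted p = 0.0183, edgeR) and Ccr2 (-0.94, adjusted p = 0.0331, edgeR) were called and Vcan was not (-1.06, adjusted p = 0.0933, edgeR). With near neighbours counted as 1 library no member was called (Ly6c2 -2.02, adjusted p = 0.0938, edgeR).

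Plac8 was the member with the most calls for the treatment label. Its log2 difference was 2.11 ± 0.28 in wild type (adjusted p = 9.66e-08, edgeR) and 1.00 ± 0.28 in knock-in (adjusted p = 0.0144, edgeR). It was positive in 8 of 8 strata and called in 3, all female, at 4.86 ± 0.69 in young wild-type, 1.36 ± 0.45 in old wild-type and 1.87 ± 0.57 in young knock-in libraries. The call in old wild-type females was lost without IFN-γ female 2 (0.26, adjusted p = 0.761, edgeR) or untreated female 1 or 4, and that in young knock-in females when either IFN-γ library was left out. The mean over the knock-in strata was not called without young IFN-γ knock-in female 1 or young IFN-γ knock-in male 2 (adjusted p up to 0.0972, edgeR), nor with near neighbours counted as 1 library (adjusted p = 0.11, edgeR). That mean was also not called in either fit with the replicate number as a block. In wild type the difference was smaller with the old label than with the young one, by -2.15 ± 0.54 (adjusted p = 0.0187, edgeR). This treatment by age label term called 1 of 9 members, beside 1.63% of all genes lower and 1.77% in all, and moved to -1.40 without young IFN-γ wild-type female 1. It was not called without that library, young untreated female 4 or young untreated male 2 (adjusted p up to 0.169, edgeR). By DESeq2 the same term called 0 of 9 members in knock-in libraries, beside 3037 genes in all. By edgeR it called 0 there (0 at an unadjusted p under 0.05), beside 9.58% of all genes. Without the 10 doubted libraries it called 1 member, lower, beside 3542 genes in all.

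The B cell markers moved with the treatment label as well. All 12 were higher in wild type (median log2 difference 3.99) and 11 of 12 in knock-in (2.20), with summed levels of 73.5 to 2891 CPM in IFN-γ and 26.3 to 102 CPM in untreated libraries. Of all genes tested, 15.6% were higher in wild type and 3.68% in knock-in. Young IFN-γ wild-type female 1 and old IFN-γ wild-type female 2, with Plac8 at 165 and 491 CPM, held 2891 and 2075 CPM of them. T and NK cell markers were higher for 9 of 11 in wild type (2.40 to 28.5 CPM summed, against 1.39 to 5.17 CPM) and mast cell markers for 8 of 8. Resident peritoneal macrophage markers were higher for 15 of 20 in wild type. Beside 6.01% of all genes, 9 of 12 B cell and 7 of 8 mast cell markers were lower for the genotype by treatment label term. This was the direction of Ly6c2. The part of these cells in the members' differences was not tested.

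For the other members the treatment label gave smaller differences. Fn1 was higher by 0.78 ± 0.21 in wild type (adjusted p = 0.00361, edgeR), but at 0.19 (adjusted p = 0.255, edgeR) without the 2 libraries that stood apart, and not called without young IFN-γ female 1 alone (adjusted p = 0.0631, edgeR). Chil3 differed by -0.91 ± 0.28 in wild type (adjusted p = 0.00911, edgeR) and stood at -0.83 ± 0.29 in knock-in (adjusted p = 0.0698, edgeR), with Chil4 at -0.87 and -1.04, both called. Without the 10 doubted libraries the wild-type call of Chil3 was lost (-0.73, adjusted p = 0.147, edgeR). Itgax differed by -0.54 ± 0.12 in wild type (adjusted p = 0.000743, edgeR), and Vcan by -0.95 ± 0.24 in knock-in (adjusted p = 0.00664, edgeR). With near neighbours counted as 1 library, the calls of Fn1 (adjusted p = 0.0561, edgeR), Chil3 (adjusted p = 0.0947, edgeR) and Itgax (adjusted p = 0.0609, edgeR) in wild type and of Vcan in knock-in (adjusted p = 0.0606, edgeR) were lost. In young knock-in females Vcan stood at 2.38 and 2.12 CPM with the IFN-γ label, below all 5 untreated libraries at 7.24 to 9.51 CPM. F13a1 and Cd209a, which the age label split completely, gave 0.32 and -0.39 in wild type and 0.25 and -0.09 in knock-in, none called. Without the 2 libraries that stood apart, Cd209a was called lower in wild type (-0.87, adjusted p = 0.00352, edgeR).

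Genotype alone called no member. By edgeR 0 of 9 passed, beside 1.16% of all genes (0.479% higher and 0.682% lower). Of the 9, 5 had an unadjusted p under 0.05, a threshold at which all genes were not counted. DESeq2 called 1, Ly6c2 (adjusted p = 0.0312), beside 720 genes in all. The median log2 difference of the members was -0.27, against -0.01 over all genes. Ly6c2 was at -0.71 ± 0.22 (adjusted p = 0.0888, edgeR), Fn1 at -0.43 ± 0.15 (adjusted p = 0.127, edgeR), Itgax at 0.25 ± 0.09 (adjusted p = 0.142, edgeR) and Chil3 at -0.48 ± 0.20 (adjusted p = 0.203, edgeR). Ly6c2 was called lower without the 2 libraries that went against their sex label (-0.81, adjusted p = 0.0453, edgeR) and without the knock-in old untreated males (-0.88, adjusted p = 0.0238, edgeR) or their replicate 4 alone (adjusted p = 0.043, edgeR). Of the 8 strata, 2 held a member that was called. The other 6, where 0% to 5.92% of all genes were called, held none, among them the young IFN-γ males with 0.0181% and the old IFN-γ males with 5.92%. In young IFN-γ females Ly6c2 stood at 0.805 and 2.90 CPM in knock-in and at 21.1, 20.5 and 30.5 CPM in wild type, a log2 difference of -3.70 ± 0.90 (adjusted p = 0.0132, edgeR), beside 3.79% of all genes called and 33.9% without overlap. That call was lost when either knock-in library was left out. In old IFN-γ females Fn1 was lower in knock-in (-1.54, adjusted p = 0.012, edgeR), beside 4.48% of all genes, and the call was lost without wild-type female 2 (adjusted p = 0.412, edgeR).

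Few members were called by sex. In wild-type libraries 2 of 9 were higher in females, beside 3.54% of all genes higher and 4.23% in all, namely Plac8 (1.27 ± 0.27, adjusted p = 0.003, edgeR) and Cd209a (0.90 ± 0.26, adjusted p = 0.0307, edgeR). Both fell below the threshold without the 2 libraries that stood apart, at 0.61 (adjusted p = 0.103, edgeR) and 0.41 (adjusted p = 0.46, edgeR). Plac8 was not called without young IFN-γ female 1 (adjusted p = 0.0521, edgeR). Cd209a was not called without that library, old IFN-γ female 2, young untreated female 1, old untreated male 2 or young untreated male 5 (adjusted p up to 0.328, edgeR). In the same comparison 10 of 12 B cell markers and 12 of 20 resident macrophage markers were higher in females. These counts were not repeated without the 2 libraries that stood apart, which are both female. In knock-in libraries edgeR called 0 of 9, beside 12.3% of all genes. At an unadjusted p under 0.05, where all genes were not counted, there were 4. DESeq2 called 1 member, beside 2962 genes in all. Without the 10 doubted libraries edgeR called 2 members in knock-in, both higher in females, beside 3163 genes in all. In single strata Plac8 (3.10, adjusted p = 0.000105, edgeR) and Cd209a (1.57, adjusted p = 0.0221, edgeR) were higher in young IFN-γ wild-type females than males, beside 7.1% of all genes, and neither was called without young IFN-γ female 1 (adjusted p = 0.261 and 1.00, edgeR). No member was called in the other 7 strata, where the share of all genes was 0.0497% (young untreated), 0.0948% (old untreated) and 4.82% (old IFN-γ) in wild type. In knock-in it was 0.682% and 5.65% in young and 0.0903% and 1.06% in old libraries, untreated and IFN-γ in turn. The genotype by sex term called 0 of 9 by edgeR (0 at an unadjusted p under 0.05), beside 0.00452% of all genes. DESeq2 also called 0, beside 57 genes in all.

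Ordered by their means, most neighbouring groups differed by less than the larger of their SDs. Sorting places similar means side by side, so this is a description and no test. For Ly6c2 the 8 old groups came before the 8 young ones, from old IFN-γ wild-type males at 259 ± 88.8 CPM (SD, n = 5) to old untreated knock-in females at 101 ± 71.8 (SD, n = 5). Then came young IFN-γ wild-type females at 24.0 ± 5.65 (SD, n = 3) and young IFN-γ wild-type males at 17.5 ± 7.91 (SD, n = 5), and the last were young IFN-γ knock-in females at 1.85 ± 1.48 (SD, n = 2). Of its 15 neighbouring pairs 2 differed by more than the larger SD, the step from old to young and the step after young IFN-γ wild-type males. For F13a1 the order was reversed, from young IFN-γ wild-type males at 119 ± 2.09 (SD, n = 5) to old IFN-γ knock-in females at 7.61 ± 2.71 (SD, n = 5), and 1 pair of 15 differed beyond the SD, young untreated knock-in females at 60.6 ± 3.08 (SD, n = 5) and the next group. For Ccr2 the ends were old untreated knock-in males (89.8 ± 48.2, n = 3) and young untreated wild-type females (18.9 ± 2.86, n = 3), with 1 pair beyond the SD. Plac8 ran from old IFN-γ wild-type females (155 ± 188, n = 5) to young untreated knock-in males (2.36 ± 0.94, n = 3), with 3 such pairs. Chil3 had 1 such pair, Vcan, Cd209a and Itgax 2 each and Fn1 3.

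Genes that act with the members were taken from a list of 14 ligands, integrins and a transglutaminase. With the old label 8 of 14 were higher and 3 lower in wild type, and 8 and 4 in knock-in, beside 28.1% of all genes higher and 33% lower (61.1% in all) and 27.9% and 32.2% (60.1% in all). The Ccr2 ligands Ccl2 (1.78 and 1.94), Ccl7 (1.22 and 1.26) and Ccl12 (4.25 and 5.18) were higher in both genotypes, in the direction of their receptor. Itgb2, the chain that pairs with Itgax, was higher by 0.70 and 0.69. Of the other chains that pair with Itgb2, Itgal was higher (1.64 and 1.95) and Itgam lower (-0.29 and -0.36). Among fibronectin receptors Itgb3 (-2.38 and -2.74) and Itgav (-0.83 and -0.71) were lower, in the direction of Fn1, whereas Itga4 (0.78 and 1.07) and Itgb1 (0.19 and 0.16) were higher. Itga5, which with Itgb1 forms the classical fibronectin receptor, stood at -0.07 in wild type (adjusted p = 0.393, edgeR) and was lower by a small amount in knock-in (-0.16, adjusted p = 0.0463, edgeR). The adhesion molecules Cd44 (0.08 and 0.09) and Selplg (-0.07 and -0.03) were not called. Tgm2, a transglutaminase like F13a1, was higher by 1.77 in both, opposite to F13a1. For the genotype by treatment label term Ccl2 (-0.46), Ccl7 (-0.67), Itga4 (-0.57) and Tgm2 (-0.37) were called, all lower.

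Other lists were counted in the same comparison, against the same 61.1% and 60.1% of all genes called. Of 11 further classical monocyte genes, 6 were higher and 3 lower with the old label in both genotypes: Clec4e, a lectin receptor for mycobacterial glycolipid, was higher by 3.10 and 3.11, and Lyz2, the myeloid lysozyme, was lower by the small amount of -0.20 and -0.30. Of 7 non-classical monocyte genes 2 were higher in both, and 3 were lower in wild type and 4 in knock-in, among them the fractalkine receptor Cx3cr1 at -2.03 and -2.01. Of 12 tested regulators of monocytes 6 were higher and 3 lower, with Irf8 at 1.76 and 2.05. Of 20 resident peritoneal macrophage genes 2 were higher and 10 lower, with Cd93 at -1.29 and -1.32 and F10 at 2.23 and 2.39. Of 9 small peritoneal macrophage genes 2 were higher in both, and 6 were lower in wild type and 5 in knock-in, with the mannose receptor Mrc1 at -1.36 and -1.42. The summed IFN-γ-induced genes stood at 10933 to 18050 CPM in old and 104 to 1978 CPM in young libraries, beside all of these differences, and their part was not tested.

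Over the 63 libraries, the genes that rose and fell most like a member were found by Pearson's r of log2(CPM + 0.5), a description over libraries that share groups and labels. For Ly6c2 they were Gpr141 (0.963), Ly6c1 (0.959) and Ctsc (0.956). Genes like Ccr2 included Dnajc3 (0.893) and Gpr15 (0.878). Plac8 went with Gpr18 (0.975), H2-DMb2 (0.968) and Pik3ip1 (0.957), and F13a1 with Wwp1 (0.982), Irs2 (0.979) and Rnf150 (0.978). Fn1 was closest to Itsn1 (0.955), Add3 (0.943) and Pde3b (0.938), and Cd209a to Bmp2 (0.916), Edil3 (0.912) and Rab11fip5 (0.904). For Chil3 the list was Chil4 (0.944), Ube2c (0.790) and Tmem254a (0.783), for Vcan Pdzrn3 (0.893), Csf1 (0.874) and Map1a (0.865), and for Itgax Mgll (0.879), Gpc1 (0.870) and Mcf2l (0.869).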

How the data were processed

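The deposited gene table holds raw counts, and a companion table holds FPKM values, both made by the authors. The submitters' processing notes name STAR 2.7.9a, DESeq2 1.40.2 and GRCm39, while the tool that counted reads, its annotation and its handling of strand are not stated there. The libraries were made with a directional kit, per the labels' protocols. The members and all gene lists were chosen with earlier results of these data known, so their counts are no independent support.

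Counts were fitted with edgeR 4.0.16 in R 4.3.3 in 1 model of all 63 libraries with 1 term for each of the 16 groups (47 residual degrees of freedom), TMM scaling and filterByExpr, which kept 22147 of 56748 genes and 99.992% of counts. Quasi-likelihood F tests were adjusted by Benjamini-Hochberg over all genes within each contrast, and called at 0.05. Mean contrasts weight strata equally, and standard errors are the log2 difference divided by the square root of F. CPM use TMM-scaled totals, whose factors ran from 0.886 to 1.233. Deposited FPKM values served only to compare levels between genes.

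Genes named were the 9 members, up to 3 genes of highest mean CPM in each list, all partners and paralogs, up to 3 genes most like each member (mean of at least 1 CPM, predicted genes left out) and checks of the labels, of which 1 gene is not reported here. The alternatives were DESeq2 1.42.0, no filter, other scaling, replicate blocks, leaving out each library or set of doubted libraries, and joining near neighbours. Leaving out the 2 libraries that stood apart, all doubted libraries or the knock-in old untreated males was chosen after seeing the data. The test was tried on simulated data with known changes. Promoters came from RefSeq on GRCm38.p6, which is not the build of the files, and 8 of 9 members (not Fn1) were matched.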

Additional observations from a re-analysis of the deposited data

Results flagged for a closer look

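In groups of 5 libraries, the highest or lowest value of each member was compared with its neighbours by Dixon's criterion. Of 72 gene and group sets 6 held a library far from the others, where chance gives about 1 in 20. Old IFN-γ wild-type female 2 accounted for 3 of them, with Fn1 at 3235 CPM (others 434 to 581), Plac8 at 490.7 CPM (others 56.1 to 82.5) and Cd209a at 0.2435 CPM (others 0.0983 to 0.133). Old untreated wild-type female 1 accounted for 2, with Ly6c2 at 44.86 CPM (others 155 to 189.7) and Itgax at 808.2 CPM (others 525 to 554). Old untreated wild-type female 5 had Chil3 at 589.4 CPM (others 150.0 to 242).

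The effect of the treatment label differed between the genotypes by a test of the difference itself for 4 members, at -1.933 for Ly6c2, -1.19 for Vcan, -0.8916 for Fn1 and -0.8109 for Ccr2 on the log2 scale. It differed between the age labels in wild type for Plac8, at -2.151.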

How the results depend on the processing

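The 7 age label calls in each genotype held in every setting. Over 108 member differences, 936 alternative values gave 875 that kept their side of the threshold, 27 that lost a call, 34 that gained one and 0 reversals. Counting near neighbours as 1 library gave 2 called members instead of 5 for the treatment label in wild type, 0 instead of 2 in knock-in, 0 instead of 2 for sex in wild type, 0 instead of 4 for genotype by treatment label and 0 instead of 1 for treatment by age label in wild type. Without the 10 doubted libraries these numbers were 3, 4, 0 and 2 for the first 4, with 2 instead of 0 for sex in knock-in and 1 instead of 0 for treatment by age label in knock-in. Without the 2 libraries that stood apart they were 0 for sex in wild type, 2 for sex in knock-in and 1 for treatment by age label in knock-in. Leaving out the 2 libraries against their sex label gave 1 for genotype, 4 for the treatment label in knock-in and 1 for sex in knock-in. Without the knock-in old untreated males genotype called 2, and DESeq2 called 1 for genotype and 1 for sex in knock-in. The cause of these changes was not tested.

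Counts of called genes over the whole table moved too. With near neighbours joined they were 7 instead of 257 for genotype, 3153 instead of 6922 and 705 instead of 1768 for the treatment label in wild type and knock-in, 66 instead of 937 and 49 instead of 2723 for sex, 31 instead of 2666 for genotype by treatment label, and 56 instead of 392 and 0 instead of 2121 for treatment by age label. Without the 10 doubted libraries they were 3392 and 2904 for the treatment label, 277 for sex in wild type, 1013 for genotype by treatment label, and 211 and 3542 for treatment by age label. Sex in wild type called 300 without the 2 libraries that stood apart. Genotype called 145 with no filter on low counts, 1257 without the knock-in old untreated males and 720 by DESeq2. Sex in knock-in called 1612 with no filter and 1539 without those males, and treatment by age label in knock-in called 1301 with no filter. Genotype by age label called 2 genes by DESeq2 instead of 0, and genotype by sex called 1 gene, 57 by DESeq2, 4 without the libraries against their sex label or all doubted ones, and 0 in 4 other settings.

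Leaving out each library in turn gave 0 to 1 called members for genotype, 5 to 7 and 1 to 3 for the treatment label in wild type and knock-in, 7 to 7 for the age label, 0 to 3 and 0 to 2 for sex, 2 to 5 for genotype by treatment label and 0 to 1 for treatment by age label in wild type. Over all genes the ranges were 68 to 688 for genotype, and 5521 to 7342 and 1032 to 2086 for the treatment label. They were 13173 to 13678 and 12545 to 13476 for the age label, and 331 to 1409 and 1389 to 3887 for sex. Genotype by treatment label called 1822 to 3472 genes, and treatment by age label in wild type 248 to 596.

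The deviations of same-numbered libraries correlated with a median of 0.299 across the age label and 0.165 across the treatment label, against -0.0581 and -0.0698 for other pairs. Of 26 same-number pairs 18 and 15 were above 0.1. The labels do not say what a number shares, so the numbers were not taken to pair the libraries in the main test. With the number as an additive block, the treatment label in wild type called 7 members instead of 5, beside 6901 genes instead of 6922. Sex called 3 members instead of 2 in wild type, beside 1268 genes instead of 937. In knock-in sex called 1 instead of 0, beside 1954 genes instead of 2723. Genotype by treatment label called 5 members instead of 4, beside 2630 genes instead of 2666. With the block by treatment label, the treatment label in wild type called 8 members, beside 6624 genes. Plac8 was not called for the treatment label in knock-in with either block. Cd209a, with 5 counts in its lowest libraries, is the member most limited by depth.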
